A study of Mus musculus with 4 samples.

Results

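The hedgehog pathway genes described here are 9 genes, chosen by symbol from the 40999 features listed in the files: the ligand genes Dhh, Shh and Ihh, the receptor gene Ptch1, the signal transducer gene Smo, the transcription factor genes Gli1, Gli2 and Gli3, and Hhip, which encodes a ligand-binding inhibitor. All 9 were listed, and all 9 passed the filter on low counts that kept 20114 features. RNA came from gonads of wild-type C57BL/6J mouse embryos, with XX and XY gonads mixed in one pool at each of 4 ages, 1 day apart, from E11.5 to E14.5. A pool came from 2 litters, with no fewer than 6 gonads of either sex, and gave 1 library, so XX and XY levels cannot be told apart and no time point has a replicate. The whole genital ridge, gonad with mesonephros, was taken at E11.5, and gonads were freed of the mesonephros from E12.5 on, so that time and dissection cannot be told apart in any comparison with E11.5.

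Hedgehog proteins are secreted ligands. They bind Patched, which otherwise holds Smoothened inactive at the primary cilium, and released Smoothened turns the Gli factors from repressors into activators of transcription. PTCH1, GLI1 and HHIP are themselves products of target genes, and their transcripts are widely used as a readout of pathway activity, while GLI3 acts largely as a repressor. In the fetal testis, Desert hedgehog comes from Sertoli cells, the supporting cells of the cords, and signals to interstitial cells during formation of fetal Leydig cells, which make androgens.

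The promoters of Dhh, Ptch1 and Hhip, the genes that rose past 2-fold between E11.5 and E12.5, are shown here for the sequence upstream of their starts. Each run holds the 250 bases before the start in RefSeq's annotation of GRCm38.p6, 5′ to 3′ on the strand of the gene, and capitals mark the GC box GGGCGG or its reverse complement. Dhh lies at chr15:98898541-98898790, Ptch1 at chr13:63565736-63565985 and Hhip at chr8:80058009-80058258, all on the minus strand. The Ptch1 run lies inside the longer span that the files give for that gene, chr13:63508328-63573460, while Dhh (chr15:98893027-98898540) and Hhip (chr8:79965850-80058078) start at or near the end of theirs.
Dhh: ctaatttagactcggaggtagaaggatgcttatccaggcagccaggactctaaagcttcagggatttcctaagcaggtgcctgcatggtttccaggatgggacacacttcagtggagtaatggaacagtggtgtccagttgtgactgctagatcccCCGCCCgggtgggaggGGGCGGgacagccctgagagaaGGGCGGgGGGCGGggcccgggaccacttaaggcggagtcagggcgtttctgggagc
Ptch1: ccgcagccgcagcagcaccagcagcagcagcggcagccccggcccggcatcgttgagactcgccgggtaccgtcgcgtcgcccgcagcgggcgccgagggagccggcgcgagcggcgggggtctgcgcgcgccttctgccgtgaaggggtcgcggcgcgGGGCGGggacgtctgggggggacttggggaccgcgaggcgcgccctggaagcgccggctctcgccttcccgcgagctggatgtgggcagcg
Hhip: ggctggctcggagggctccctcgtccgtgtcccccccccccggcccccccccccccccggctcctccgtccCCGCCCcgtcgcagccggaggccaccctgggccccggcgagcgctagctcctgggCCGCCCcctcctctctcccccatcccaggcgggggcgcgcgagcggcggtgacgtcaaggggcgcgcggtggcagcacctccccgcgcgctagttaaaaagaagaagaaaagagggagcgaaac
The table matched 7 of the 9 genes, all but Shh and Gli1. Dhh had 4 GC box matches, Hhip and Ptch1 had 2 and 1, and 6 of the 7 matched genes had at least 1, against 32.7% of the 32851 promoters of the table. The 7 windows held from 59.6% (Dhh) to 78.4% (Ptch1) G or C, and the 32.7% was not matched for G and C content. The Gli consensus TGGGTGGTC was searched on both strands and was found in none of the 7 windows and in 0.225% of all promoters. No match says only that these letters are not in the window shown.

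Values are the deposited counts and TPM (transcripts per 1000000), which allow for gene length. Counts were also scaled by TMM, edgeR's trimmed mean of M-values, and are given as CPM (counts per 1000000), so that libraries can be compared. The libraries held 25593453 to 31752562 counts. rRNA took 8.72% of the counts at E13.5 and 48.9% at E14.5, with 17.7% and 8.90% at E11.5 and E12.5. TPM are shares of a fixed total that includes the rRNA features, so TPM is used here between genes of a library and scaled CPM between libraries. Intervals are exact 95% intervals that cover counting error only, since 1 library per time point gives no spread between samples. A gene is called at a fold of at least 2 with a counting interval that excludes no change, and no p-value is given. Of the features kept, 16.3% were called at E12.5 versus E11.5, 4.06% at E13.5 versus E12.5 and 7.28% at E14.5 versus E13.5.

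Dhh held the main change of the pathway between E11.5 and E12.5, where it went from near the lowest to among the highest of the 9 genes. From E11.5 to E14.5 it had 63, 1707, 1654 and 852 counts. On the scaled axis these are 1.84, 54.4, 41.8 and 45.3 CPM. The E11.5 library stood low and the 3 later ones lay close together. The rise at E12.5 was 29.5-fold, a log2 fold change of 4.88 (4.52 to 5.27). Of the 15284 genes whose larger count in this pair was 50 or more, 0.131% had a higher fold change.

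Dhh then moved little. Its log2 fold change was −0.38 (−0.48 to −0.28) at E13.5 versus E12.5 and 0.11 (−0.01 to 0.23) at E14.5 versus E13.5, and neither was called. From E12.5 to E14.5 it was −0.27 (−0.39 to −0.15), also short of 2-fold. Its TPM was 0.938, 33.8, 28.4 and 10.02 in order of time, the last in the library with the most rRNA.

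Sertoli cell markers as a sum took a course like that of Dhh, but single markers differed. The summed level of the 7 markers Sox9, Amh, Sox8, Dmrt1, Cldn11, Fgf9 and Ptgds was 109.7, 533, 465 and 499.9 CPM from E11.5 to E14.5. None of the 7 was at or below the floor of 3 counts in any library, and 5 of the 7 were called higher at E12.5. In these bulk samples, fewer cells of a type and less RNA per cell cannot be told apart. The sum rose 4.86-fold at E12.5, less than Dhh, and Amh, the anti-Müllerian hormone gene of Sertoli cells, went from 45 to 8900 counts. Amh thus held 8900 of the 16724 marker counts at E12.5.

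Per unit of length, Dhh stood at 0.0312 of the level of Sox9, the gene of a transcription factor that directs Sertoli cell differentiation, at E11.5 (0.0239 to 0.0401). The ratio was 0.546 (0.516 to 0.578) at E12.5, 0.632 (0.595 to 0.670) at E13.5 and 0.783 (0.719 to 0.853) at E14.5, and the intervals of the 4 libraries do not overlap. These within-library ratios do not depend on how libraries are scaled. Sox9 itself had 80.6, 136.5, 90.6 and 79.1 scaled CPM in order of time, and Dhh had 54.4, 41.8 and 45.3 from E12.5 on. The climb of the ratio after E12.5 thus goes with a fall of Sox9, not with a rise of Dhh above its E12.5 level. Against Amh the ratio went the other way, from 0.902 (0.606 to 1.35) at E11.5 to 0.124 (0.117 to 0.130) at E12.5, 0.103 (0.0982 to 0.109) at E13.5 and 0.0966 (0.0898 to 0.104) at E14.5.

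Dhh is also made by Schwann cells and endothelial cells. The neural crest and Schwann cell markers Sox10 and Foxd3 summed to 7.09, 11.8, 9.98 and 9.61 CPM in order of time, 1.66-fold higher at E12.5 than at E11.5, and their part in the level of Dhh was not tested. Of this pair Sox10, with 201 and 364 counts at that step, was not called, and Foxd3, with 42 and 5 counts, was called lower. The 4 endothelial markers Pecam1, Cdh5, Kdr and Tek summed to 322, 317, 244 and 226 CPM, and none of them was called at E12.5. The 4 Y-linked genes Ddx3y, Kdm5d, Eif2s3y and Uty, a gauge of the XY part of each pool, summed to 152.5, 174.7, 154.2 and 165.4 CPM. Their sum was thus 1.15-fold higher at E12.5 than at E11.5.

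**Figure D1:**
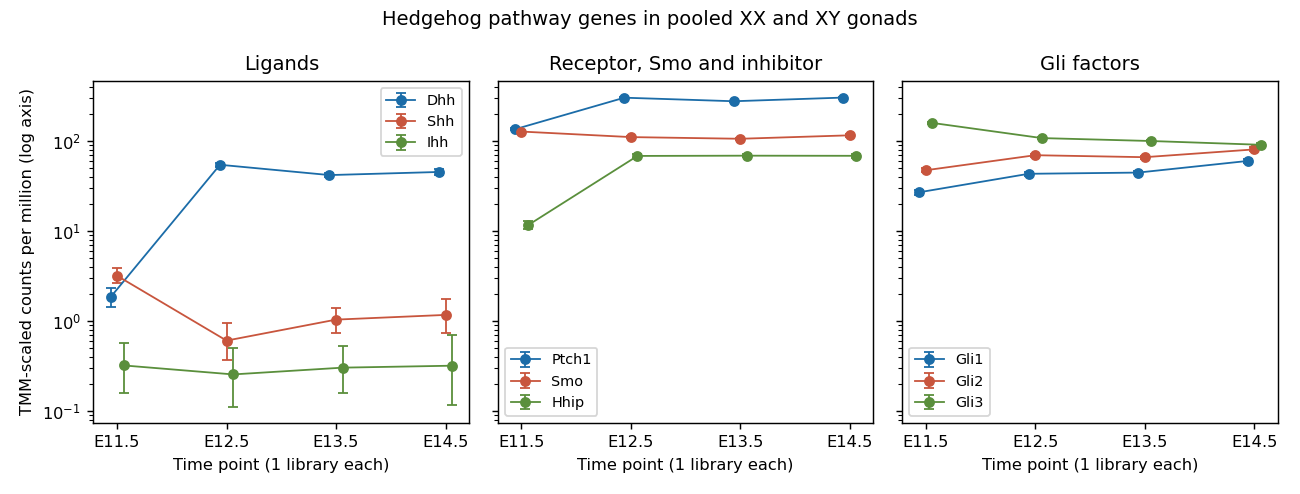
Scaled level of the 9 genes in each library, on a log axis of TMM-scaled CPM, with points for the single library of each time point and bars for the exact 95% counting interval. Dhh goes from 1.84 CPM at E11.5 to 54.4 CPM at E12.5, while Shh goes from 3.18 to 0.606 CPM and Ihh stays under 0.33 CPM in every library.

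Shh, the ligand gene with the highest count at E11.5, changed the other way. It had 109, 19, 41 and 22 counts in order of time, or 3.18, 0.606, 1.04 and 1.17 CPM. Shh fell by 2.39 on the log2 scale at E12.5 (−3.18 to −1.68), and no later step was called. Its log2 fold change was 0.77 (−0.04 to 1.64) at E13.5 and 0.17 (−0.64 to 0.95) at E14.5, with intervals that include no change.

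Markers of the mesonephros, the tissue that was present at E11.5 alone, fell as a sum at the same step. The summed level of Pax2, Pax8, Lhx1, Gata3, Cdh16 and Wnt9b was 135.4, 26.4, 21.6 and 25.0 CPM in order of time, and Pax2, Gata3, Cdh16 and Wnt9b, 4 of the 6, were called lower at E12.5. Each of the 6 had more than 3 counts in every library. The sum fell by 2.36 on the log2 scale (−2.47 to −2.25), while the 6 single genes ranged from −5.70 to 0.64 with a median of −3.18. The part of the mesonephros in the change of Shh was not tested.

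The adrenal cortex and the gut endoderm are known sites of Shh. The 3 adrenal markers Cyp21a1, Cyp11b1 and Mc2r summed to 4.61 CPM at E11.5 and 2.58 at E12.5. At E12.5 Mc2r held 79 of the 81 counts, with Cyp21a1 and Cyp11b1 at 1 count each. The sum was 6.595 CPM at E13.5 and 14.3 CPM at E14.5. Cyp21a1 and Cyp11b1 were called higher at both of these steps, and Mc2r, with 136 and 57 counts, at neither. The paper names Cyp11b1 and Cyp21a1 among its most increased genes at E13.5 and links both to steroid hormones. The sum thus cannot be read as a gauge of adrenal tissue alone. The 5 gut endoderm markers Foxa1, Foxa2, Cdx2, Epcam and Sox17 summed to 34.8, 36.4, 36.2 and 72.8 CPM, with a median log2 fold change of 0.18 at E12.5 versus E11.5. At that step 1 of the 5, Foxa2, was called higher with 1 and 9 counts, and 1, Foxa1, was called lower with 170 and 26 counts. Foxa1 stood at 908 counts at E14.5. The part of either tissue in the level of Shh was not tested. On the opposite strand, Shh shares 118 exon bases with 9530036O11Rik, a feature with 2 to 12 counts per library.

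Ihh, the hedgehog of growing cartilage and gut, was barely detected. It had 11, 8, 12 and 6 counts in order of time, or 0.321, 0.255, 0.303 and 0.319 CPM, against a floor of 3 counts. All of its intervals overlap, and changes up to the bounds of the E12.5 versus E11.5 interval, −1.85 to 1.12 on the log2 scale, were not detectable at this depth.

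The make-up of the ligand counts therefore differed between E11.5 and the later libraries. Dhh was 34.4% of the 183 ligand counts at E11.5 (exact Clopper-Pearson 95% interval 27.6 to 41.8). It was 98.4% of 1734 at E12.5 (97.7 to 99.0), 96.9% of 1707 at E13.5 (96.0 to 97.7) and 96.8% of 880 at E14.5 (95.4 to 97.9). Shh was 59.6% (52.1 to 66.7) at E11.5 and 1.10% (0.661 to 1.71), 2.40% (1.73 to 3.24) and 2.50% (1.57 to 3.76) later. Allowing for gene length gave nearly equal shares, with Dhh at 33.0% of ligand TPM at E11.5 and 98.3% at E12.5.

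Of the receptor and transducer genes, Ptch1 rose and Smo did not. Ptch1 had 4621, 9495, 10937 and 5713 counts, or 134.8, 302.6, 276.4 and 303.5 CPM in order of time. E11.5 was the low library and the later 3 lay close together. The rise at E12.5 was 2.24-fold, a log2 fold change of 1.17 (1.12 to 1.22), and 5.48% of the same 15284 genes had a higher fold change. Smo, whose product carries the signal across the membrane, had 4360, 3465, 4187 and 2176 counts, or 127.2, 110.4, 105.8 and 115.6 CPM. Its log2 fold change of −0.20 (−0.27 to −0.14) at E12.5 was not called, and by deposited TPM the value was 0.08. At E14.5 versus E13.5 Ptch1 and Smo were both at 0.13, short of a call, and by total counts both were at −0.93.

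Ptch1 and Smo can also be set against each other within a library. Per unit of length Ptch1 was 0.427 of Smo at E11.5 (0.410 to 0.445). At E12.5 it was 1.10 of Smo (1.06 to 1.15), at E13.5 1.05 (1.02 to 1.09) and at E14.5 1.06 (1.007 to 1.11). The E11.5 ratio lies below the other 3, whose intervals overlap.

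Hhip, which encodes a membrane protein that binds and sequesters hedgehog ligands, had the second largest rise among the 9 genes. It had 397, 2140, 2717 and 1288 counts in order of time. In scaled terms these are 11.6, 68.2, 68.7 and 68.4 CPM, so the 3 later libraries hardly differ. The rise at E12.5 was 5.89-fold, a log2 fold change of 2.56 (2.40 to 2.72), with 1.52% of those 15284 genes above it. The next changes were 0.01 (−0.07 to 0.09) and −0.01 (−0.10 to 0.09) on the log2 scale.

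Relative to Ptch1, Hhip rose per unit of length from 0.103 at E11.5 (0.0925 to 0.114) to 0.270 at E12.5 (0.257 to 0.283). It stood at 0.297 (0.285 to 0.310) at E13.5 and 0.270 (0.254 to 0.287) at E14.5. Dhh relative to Ptch1 went from 0.0493 (0.0378 to 0.0632) to 0.650 (0.617 to 0.684) and then stood at 0.547 (0.519 to 0.576) and 0.539 (0.501 to 0.580). The ligand gene thus changed more than either of the target genes between E11.5 and E12.5, and the target Hhip more than the target Ptch1. The target Gli1 rose less than Ptch1 and stood at 0.596 (0.555 to 0.640) of it at E11.5, 0.426 (0.403 to 0.452) at E12.5, 0.482 (0.458 to 0.507) at E13.5 and 0.591 (0.554 to 0.630) at E14.5.

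**Figure D2:**
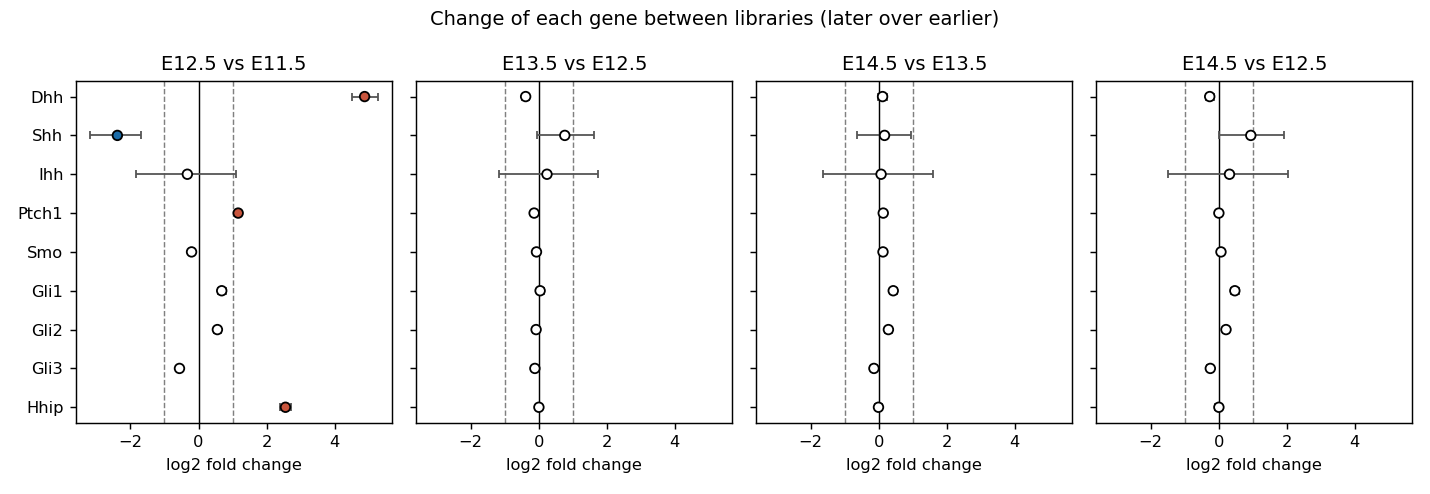
Log2 fold change of each of the 9 genes in 4 comparisons, later library over earlier, with exact 95% counting intervals as bars and dashed lines at 2-fold. Filled points are called, red higher and blue lower, and the 4 of them (Dhh, Ptch1, Hhip and Shh) all lie in E12.5 versus E11.5.

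The 3 Gli genes were not called in any comparison of successive libraries. Gli1, a target and activator, had 922, 1355, 1763 and 1129 counts, or 26.9, 43.2, 44.5 and 60.0 CPM. Its log2 fold change was 0.68 (0.56 to 0.80) at E12.5 versus E11.5, 0.04 (−0.06 to 0.15) at E13.5 and 0.43 (0.32 to 0.54) at E14.5. Gli2, the main activator in most tissues, had 1620, 2180, 2614 and 1517 counts, or 47.3, 69.5, 66.1 and 80.6 CPM, with log2 fold changes of 0.56 (0.46 to 0.65), −0.07 (−0.16 to 0.01) and 0.29 (0.19 to 0.38). Both were highest at E14.5 by TMM. Scaled by total counts or by the deposited TPM, the E14.5 steps of Gli1 and Gli2 are negative, at −0.63 and −0.77 by total counts.

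Gli3 went the other way. It had 5439, 3379, 3953 and 1708 counts, or 158.7, 107.7, 99.9 and 90.7 CPM, highest at E11.5 and lowest at E14.5. Its log2 fold changes were −0.56 (−0.62 to −0.50), −0.11 (−0.18 to −0.04) and −0.14 (−0.22 to −0.06), each short of 2-fold. Gli3 shares 563 exon bases with Gm6556 on the opposite strand, which had 91 to 202 counts, and Gli1 shares 65 with Arhgap9, which had 25 to 41.

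The balance of the Gli genes shifted within the libraries, with no scaling involved. Gli1 was 0.398 of Gli3 per unit of length at E11.5 (0.371 to 0.427), 0.942 at E12.5 (0.884 to 1.004), 1.05 at E13.5 (0.990 to 1.11) and 1.55 at E14.5 (1.44 to 1.68). The intervals of E12.5 and E13.5 overlap, while those of E11.5 and E14.5 each stand apart from the rest. Gli2 relative to Gli3 was 0.287 (0.271 to 0.303), 0.621 (0.588 to 0.655), 0.636 (0.605 to 0.669) and 0.855 (0.797 to 0.916) in the same order. Gli1 relative to Gli2 moved less, from 1.39 (1.28 to 1.51) at E11.5 to 1.82 (1.68 to 1.96) at E14.5. These pairs of genes were chosen after their values were seen.

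**Figure D3:**
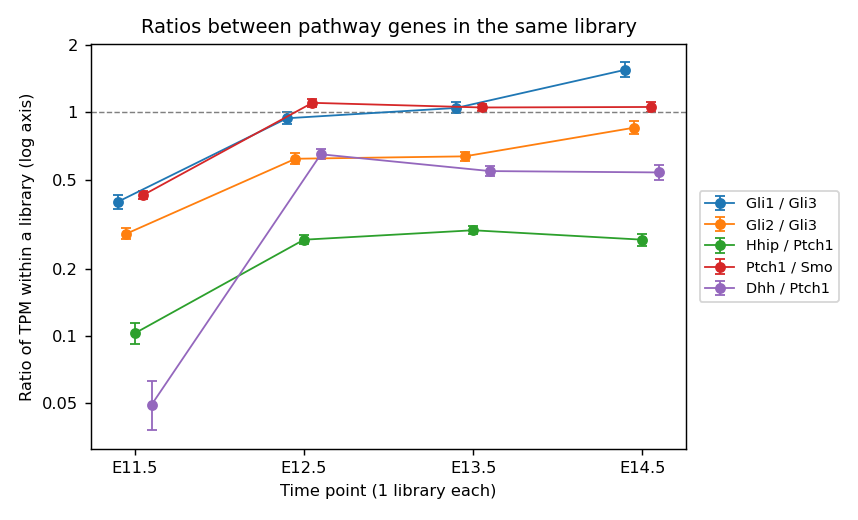
Ratio of TPM between pairs of pathway genes in the same library, on a log axis, with exact 95% counting intervals and a dashed line at equal levels. Gli1 relative to Gli3 goes from 0.398 at E11.5 to 1.55 at E14.5, and the other 4 ratios are also lowest at E11.5.

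Of the 9 genes, 4 were called at E12.5 versus E11.5, 3 higher and 1 lower, where 8.12% of all genes kept were called higher and 8.21% lower. The median log2 fold change of the 9 was 0.56, and that of all genes kept was −0.00. Without replicates these calls cover counting error alone, and with edgeR's exact test at an assumed biological coefficient of variation of 0.4 the 4 calls came down to 1, Dhh. At E13.5 versus E12.5 none of the 9 was called, with 2.54% of all genes kept called higher and 1.52% lower, and the median of the 9 was −0.06. At E14.5 versus E13.5 none was called either, with 5.77% called higher and 1.51% lower, and the median was 0.13. Between E12.5 and E14.5, both without mesonephros, the count was again 0 of 9, with 10.5% of all genes kept called, 7.94% higher and 2.55% lower. The 9 ranged from −0.27 to 0.94. The upper end is Shh, with 19 and 22 counts and an interval of −0.00 to 1.92.

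Setting E13.5 or E14.5 against E11.5 shows whether the E12.5 library alone carries these calls, although all 3 comparisons share the E11.5 library. Dhh, Ptch1, Hhip and Shh were called in the same direction in each. The log2 fold changes at E13.5 versus E11.5 were 4.50, 1.04, 2.57 and −1.62 in that order, with 19.7% of all genes kept called, 10.1% higher and 9.6% lower. At E14.5 versus E11.5 they were 4.62, 1.17, 2.56 and −1.44, with 18.3% called, 11.3% higher and 6.93% lower. Gli1 passed 2-fold in the last of these alone, at 1.16 (1.03 to 1.28), where Gli2 was at 0.77 and Gli3 at −0.81. The values of Ptch1 and Gli1 against E14.5 rest on the scaling of that library, since their counts were 4621 and 5713 for Ptch1 and 922 and 1129 for Gli1 in libraries of 31266481 and 31526303 counts, short of 2-fold by total counts.

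Levels of different genes can be ordered by TPM within a library. At E11.5 the order was Smo at 44.5, Gli3 at 28.5, Ptch1 at 19.0, Gli1 at 11.3, Gli2 at 8.16, Hhip at 1.95, Shh at 1.70, Dhh at 0.938 and Ihh at 0.203 TPM. Hhip and Shh were the only neighbours there whose counting intervals overlapped. At E12.5 it was Ptch1 at 52.0, Smo at 47.1, Dhh at 33.8, Gli3 at 23.5, Gli1 at 22.2, Gli2 at 14.6, Hhip at 14.03, Shh at 0.395 and Ihh at 0.196 TPM. Gli3 and Gli1, Gli2 and Hhip, and Shh and Ihh overlapped.

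The order at E13.5 was that of E12.5 except that Gli1 at 25.0 stood beside Gli3 at 23.9 and Hhip at 15.4 beside Gli2 at 15.2 TPM, each pair with overlapping intervals. At E14.5 Ptch1 at 18.6 and Smo at 17.6 TPM overlapped at the top, as did Gli1 at 10.98 and Dhh at 10.02. Gli3 at 7.07, Gli2 at 6.04 and Hhip at 5.01 followed. Among all genes kept, Ptch1 had a higher TPM than 76.7% at E11.5 and 90.2%, 89.4% and 90.3% later, and Dhh than 24.3% at E11.5 and 83.8%, 78.8% and 80.3% later.

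The 31 other genes of the pathway reported here were all measured and all passed the filter. At E12.5 versus E11.5, 4 of the 31 were called, all lower, where 16.3% of all genes kept were called and 8.21% called lower, with a median log2 fold change of −0.17.

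Of the 5 co-receptors and ligand-binding proteins, Gas1 and Lrp2 fell at that step. Gas1, a co-receptor, had 7945, 3599, 4238 and 2186 counts and a log2 fold change of −1.02 (−1.07 to −0.96). This call rests on the scaling, since the fall was short of 2-fold by total counts and by TPM, 114.3 at E11.5 and 68.9 at E12.5. Lrp2, a large endocytic receptor of absorptive epithelia including nephric tubules, had 1303, 426, 334 and 146 counts and a log2 fold change of −1.49 (−1.65 to −1.33). The summed mesonephros markers fell in the same comparison, by 2.36 on the log2 scale, and their part was not tested. The co-receptors Boc and Cdon had log2 fold changes of 0.44 and 0.32 and were not called.

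Among the 6 genes for processing and release of the ligand, Scube3 and Disp2 fell at E12.5. Scube3, a secreted carrier that helps release ligand, had 3477, 1093, 1324 and 539 counts and a log2 fold change of −1.54 (−1.64 to −1.44). Disp2, a relative of the ligand transporter Disp1, had 63, 2, 6 and 11 counts, so the E12.5 level was 0.0347 of that at E11.5 (0.00411 to 0.131). Disp1 and Hhat, which adds palmitate to the ligand, had log2 fold changes of −0.17 and 0.03. Where Dhh rose 29.5-fold, Disp1 and Hhat did not pass 2-fold, while Scube3 and Disp2 were called lower.

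None of the 9 ciliary regulators and none of the 11 genes that control Gli was called in any of the 3 successive steps. Of all genes kept, 16.3%, 4.06% and 7.28% were called at these steps, so few calls would be looked for in lists of this size. At E12.5 versus E11.5 the ciliary genes ranged from −0.81 to 0.37 with a median of −0.11, and the Gli control genes, Sufu among them, from −0.70 to 0.07 with a median of −0.10. Sufu, which holds Gli factors in the cytoplasm, was at −0.31. Kif7, a kinesin of the cilium tip, was at −0.39.

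None of the 31 was called at E13.5 versus E12.5, where 4.06% of all genes kept were called. At E14.5 versus E13.5, 2 of the 31 were called, both higher, with 5.77% of all genes kept called higher. Scube2, a secreted carrier like Scube3, had 1605, 1201, 1763 and 3304 counts in order of time. These are 46.8, 38.3, 44.5 and 175.5 CPM, so that E14.5 stood alone, with a log2 fold change of 1.98 (1.89 to 2.06) over E13.5 and 2.20 (2.10 to 2.29) over E12.5. Its raw count was higher as well, and its TPM was 25.7 at E13.5 and 33.0 at E14.5. By total counts and by TPM the rise over E13.5 was short of 2-fold, so the call of Scube2 at that step rests on the scaling of the E14.5 library. The second was Disp2, with 6 and 11 counts, and it was no longer counted when at least 10 counts were asked of both libraries.

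**Figure D4:**
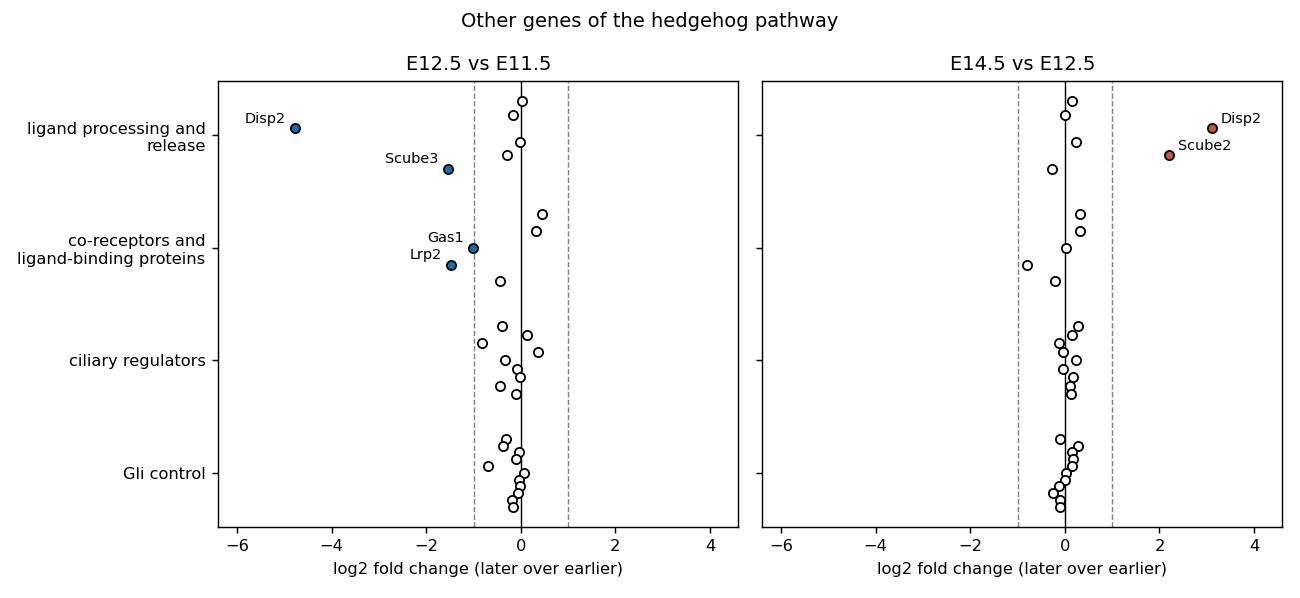
Log2 fold change of the 31 other pathway genes, later library over earlier, by role, with dashed lines at 2-fold and filled points for genes called, red higher and blue lower. At E12.5 versus E11.5 Scube3, Disp2, Gas1 and Lrp2 are called lower, and at E14.5 versus E12.5 Scube2 and Disp2 are called higher.

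Fetal Leydig cell genes, whose cells depend on Dhh in the testis, rose over more of the time course than Ptch1 and Hhip. The 6 markers Cyp11a1, Cyp17a1, Hsd3b1, Star, Insl3 and Lhcgr summed to 13.3, 170.7, 700.2 and 1153 CPM from E11.5 to E14.5. All 6 were called higher at E12.5 and again at E13.5, and none at E14.5. Insl3 was at 0 counts at E11.5, below the floor of 3 counts. Over E12.5 to E14.5 the sum rose 6.75-fold while Ptch1 and Hhip each had a log2 fold change of 0.00 and the target gene Gli1 one of 0.47 (0.36 to 0.59), which was not called.

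Interstitial progenitors, the cells that receive the signal, were followed by Nr2f2, Pdgfra, Tcf21, Wnt5a and Maf. Their sum was 993, 974, 1056 and 1305 CPM in order of time. The sum at E12.5 was 0.980 of that at E11.5, but its genes differed in direction, with a median log2 fold change of 0.36. Nr2f2, the most abundant at E11.5, had a log2 fold change of −0.88 and was not called, the other 4 had values above 0, and 1 of the 5, Wnt5a, was called higher. Markers of the XX supporting cells, Foxl2, Wnt4, Fst, Irx3 and Bmp2, summed to 110.6, 190.8, 254.2 and 192.7 CPM, and 4 of these 5 were called higher at E12.5.

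**Figure D5:**
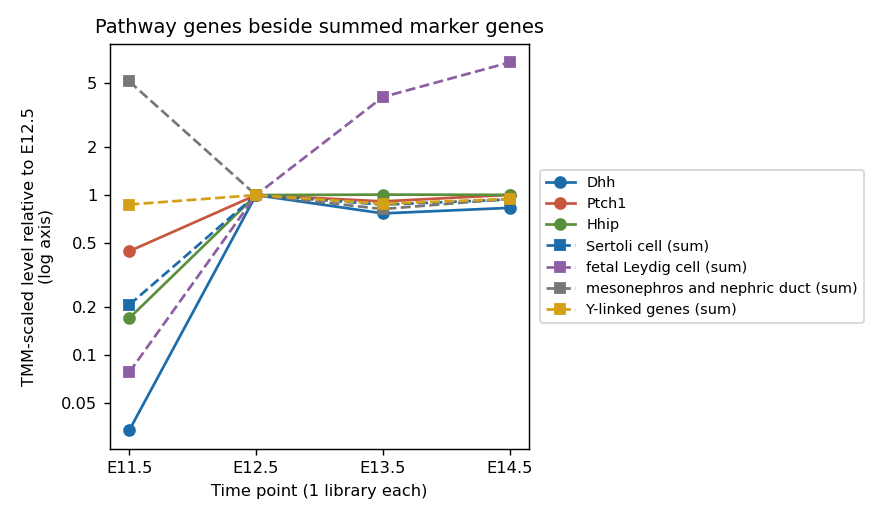
Scaled level of Dhh, Ptch1 and Hhip (solid lines, circles) and of summed marker genes (dashed lines, squares), each relative to its own level at E12.5, on a log axis with 1 library per time point. From E12.5 on Ptch1, Hhip and the Sertoli sum stay near 1, while the fetal Leydig sum reaches 6.75 at E14.5 and the mesonephros sum falls from E11.5 to E12.5.

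The genes with courses most like those of Dhh, Ptch1, Gli1 and Hhip were found among 15853 genes with a mean of at least 1 CPM. Likeness was the Euclidean distance between log2 levels, each centred on its mean over the 4 libraries. Before the log, 0.5 CPM was added to each level, which shrinks the folds of genes with few counts. For Dhh the nearest were Ankrd63 at 0.303, Cst9 at 0.345 and Aard at 0.381, and 5 genes lay within 0.5. Cst9 had 66, 1265, 1523 and 755 counts, beside 63, 1707, 1654 and 852 for Dhh. For Hhip they were 8030411F24Rik at 0.111, Gstm2 at 0.140 and Socs2 at 0.148, with 82 genes within 0.5. Of these, 8030411F24Rik had 1, 69, 93 and 44 counts in order of time, below the floor of 3 at E11.5. Its place rests on the 0.5 CPM added, since its level rose far more than that of Hhip at E12.5.

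Ptch1 and Gli1 had many near neighbours. Shc4 at 0.0427, St3gal4 at 0.0526 and Pdgfa at 0.0741 were nearest to Ptch1, with 811 genes within 0.5. Itpka at 0.0327, Znrf2 at 0.0356 and Klhl36 at 0.0387 were nearest to Gli1, with 1282. Between the pathway genes themselves, Gli1 and Ptch1 lay 0.410 apart, Gli1 and Gli2 0.280, Hhip and Ptch1 1.21, and Dhh and Hhip 1.61. With 4 libraries such likeness is only a description of a course, one that many genes share for Ptch1 and Gli1 and few for Dhh.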

How the data were processed

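Stranded libraries of total RNA from pooled XX and XY gonads, 1 per time point and 4 in all, were grouped by their deposited labels. The authors depleted rRNA with probes and RNase H, trimmed reads with Cutadapt, used STAR for alignment to mm10, collapsed duplicates by UMI-tools and assigned what was left to genes by featureCounts. The deposited counts are these deduplicated whole-number counts, and the deposited TPM rest on those counts and gene lengths, which recalculation matched for all 163996 values to within 0.001 of the value. Tool versions, the annotation release and the strand setting are not given in the sources used here. Without replicates, a change in sample handling cannot be told from a change with age.

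Counts were scaled by TMM over the 20114 genes kept by filterByExpr (edgeR 4.0.16, R 4.3.3), and fold changes used a prior count of 0.125. Intervals are exact: Clopper-Pearson for ratios and shares, Poisson for levels, in Python 3.11.15 with scipy 1.17.1. The study's edgeR threshold could not be applied as a test without a stated dispersion, so a gene was called at 2-fold with an interval that excludes no change. Counts of 3 or fewer were treated as the floor, 0.159 scaled CPM at E14.5 and 0.0758 to 0.0956 in the others. The fold change script was tested on simulated data. Adrbk1 stood for the listed Grk2. Some genes of the pathway and marker lists are not reported here and were left out of the lists' counts, medians and sums.

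The 9 genes, the other lists and the pairs compared were chosen with earlier results of these data known. The Y-linked and pregranulosa lists, the comparisons of E13.5 and E14.5 with E11.5 and TMM from protein-coding genes were added after the values were seen. All 9 genes are named, with other pathway genes that were called, marker lists as sums and the 3 nearest genes of Dhh, Ptch1, Gli1 and Hhip. Ciliary, Gli control, Disp1, Hhat, Boc and Cdon values, and Disp2 at E14.5, were named after they were seen. Alternatives were DESeq2 1.42.0 size factors, TMM of each pair, total counts, total counts after leaving out rRNA and each library's 10 most abundant genes, a prior count of 2, the deposited TPM ratio, no filter on low counts, a minimum of 10 in both libraries of a pair, 4-fold, and edgeR's exact test at preset biological coefficients of variation of 0.1 and 0.4. Reads were not realigned, and the RPKM column was not used here.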

Additional observations from a re-analysis of the deposited data

How the results depend on the processing

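The scale of the E14.5 library matters most. By total counts the median log2 fold change of all genes kept was −1.07 at E14.5 versus E13.5 and −1.04 at E14.5 versus E12.5, against −0.01 and −0.00 by TMM. The 9 genes then gave 2 and 4 calls in place of 0, all lower, and the other pathway genes 19 and 16 calls in place of 2, of which 1 was higher. The ratio of the deposited TPM gave 9 and 7 calls among the 9 genes and 29 calls among the others in both comparisons, all lower. Both alternatives leave the rRNA-rich E14.5 library uncorrected. At E12.5 versus E11.5 the medians under them were 0.16 and 0.28, against −0.00 by TMM. All 4 calls of the 9 genes were kept, while of the others Gas1 was short of 2-fold under both.

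With edgeR's exact test at a biological coefficient of variation of 0.4, 1 of the 9 genes (Dhh) and 1 of the others (Disp2) were called at E12.5 versus E11.5, and 0 of the others at E14.5 versus E13.5 and versus E12.5. At 0.1 the 9 genes gave the same counts and the others 1 at E14.5 versus E13.5. At 4-fold the others gave 1 call at E12.5 versus E11.5 and 0 at E14.5 versus E13.5, while 3 of the 9 genes were called at E12.5. At least 10 counts in both libraries left 1 of the others at E14.5 in each comparison, because Disp2 was no longer tested. DESeq2 size factors, TMM of the pair, TMM from protein-coding genes, total counts after leaving out rRNA and the 10 most abundant genes, and a prior count of 2 shifted the 36 log2 fold changes of the 9 genes by −0.08 to 0.10 and changed no call. No filter changed no count by more than 1.5 times.

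No paired analysis was possible because each time point has 1 library. With 1 library each, leaving out a replicate was not run. Depth limits Ihh, Shh after E11.5 and Disp2.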
